A study of Homo sapiens with 20 samples.

Results

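The sites described here are stretches of open chromatin that SW872 cells with the empty vector shared with cells expressing TAZ4SA or YAP5SA, and at which neither fusion, TAZ-CAMTA1 nor YAP-TFE3, had a peak. They were found by merging the overlapping ATAC-seq peaks of 7 vectors into 372133 sites and keeping those with an empty vector (EV) peak, a TAZ4SA or YAP5SA peak or both, and no peak in either fusion list. There were 4145 such sites, called fusion-absent sites below. The EV list had a peak at 126597 sites, of which 95508 also had a TAZ4SA or YAP5SA peak, and the fusion-absent sites made up 4.34% of the latter (Wilson 95% interval 4.21 to 4.47%). Both fusions had a peak at 85744 of these 95508 sites and 1 fusion at 5619. The number of fusion-absent sites depended on the settings, with 831 for peaks of summit −log10 p 5 or more in all lists, 151 with that limit on EV, TAZ4SA and YAP5SA alone, and 6859 when summits were widened by 250 bp both ways in place of peaks.

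ATAC-seq measures where a transposase can cut the DNA, and was done on SW872, an established human liposarcoma cell line. Each culture was stably transduced with the empty vector, with TAZ4SA or YAP5SA (full-length TAZ and YAP in which serines that restrain the protein are mutated), with full-length CAMTA1 or TFE3, or with the fusions TAZ-CAMTA1 or YAP-TFE3. The 20 libraries comprised 3 per vector and 2 for TFE3. The title of the third EV library marks it as redone, and the titles of the YAP-TFE3 libraries name Yap5SA as the YAP portion. The lists carry no gene names, so the line was not checked against marker genes. All constructs were expressed from a transduced vector in a line that is not endothelial, the lineage of the tumour that carries the fusions, and EV cells carried the vector without an insert. A single peak list per vector was deposited, so a value below has no replicate error and no test was run, and the number of reads behind a list is unknown. Intervals are Wilson 95% intervals of a share and cover counting error only. The EV, TAZ4SA, YAP5SA, TAZ-CAMTA1 and YAP-TFE3 lists were used to choose the sites: members were chosen by the presence or absence of peaks in them, so their values at these sites are a description. The CAMTA1 and TFE3 lists had no part in the choice.

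TAZ and YAP are transcriptional coactivators at the end of the Hippo pathway. They do not bind DNA themselves and are brought to it mainly by the TEAD transcription factors, often at enhancers. In epithelioid hemangioendothelioma, a vascular sarcoma, gene fusions join the N terminus of TAZ or YAP, which keeps the TEAD-binding part, to the C terminus of CAMTA1, a calmodulin-binding transcription activator, or of TFE3, a basic helix-loop-helix factor of the MiT family. A site at which the control and a coactivator have a peak and the fusions have none is a site whose measured opening fell below the peak threshold of both fusion lists.

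Fusion-absent sites were weakly open and narrow in EV cells. The strength of a peak is given here as the area under the curve of the authors' peak caller, which is 20 or more for every peak deposited. The largest EV area at a fusion-absent site had a maximum of 1242, a median of 44.6 and quartiles of 29.5 and 75.7. The median of the whole EV list was 102.7. Of the 4145 sites, 636 (15.3%) exceeded that median and 0 lay in the top 10% of the list. The median summit −log10 p was 4.08 and 266 sites (6.42%) reached 5 or more, whereas 66.6% of the EV sites with both fusions did. The EV peak was 102 bp wide at the median, and the merged site 207 bp.

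In strength these sites stood between the sites of the EV list alone and those of a single fusion. At the 12398 sites with an EV peak and no other peak, the median EV area was 32.8 and the EV peak was 91 bp wide. The 5619 sites with 1 fusion had a median EV area of 51.2 and a width of 109 bp. At the sites with both fusions the median EV area was 318 and the width 358 bp. The cumulative curves of the fusion-absent sites and of the single-fusion sites ran close together, far to the left of the curve for both fusions.

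**Figure D1:**
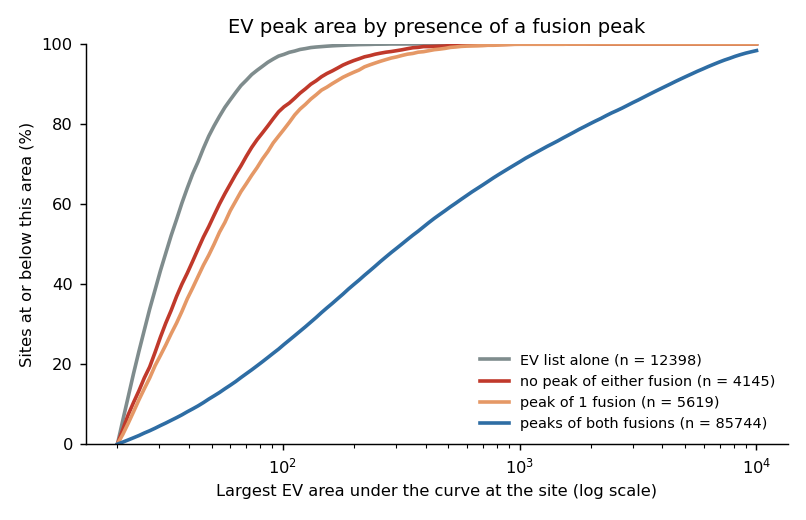
Cumulative share of sites (y axis, %) against the largest EV area under the curve at the site (x axis, log scale), for EV sites that lack both fusions, EV sites with 1 or both fusions (all with a TAZ4SA or YAP5SA peak), and sites of the EV list alone. The median of the fusion-absent sites is 44.6, between 32.8 for EV alone and 51.2 for 1 fusion, and that of sites with both fusions is 318.

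The share of EV sites without a fusion peak fell from one band of EV area to the next. Of the 6128 sites with an EV area of 20 to 30 and a TAZ4SA or YAP5SA peak, 1083 (17.7%, 16.7 to 18.6%) had no fusion peak. The share was 13.8% for areas of 30 to 50, 8.33% for 50 to 100, 3.42% for 100 to 200 and 0.907% for 200 to 500. Above 500 it was 17 of 35270 sites (0.0482%, 0.0301 to 0.0772%). These areas were among the values that chose the sites.

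The peaks of TAZ4SA and YAP5SA at these sites also lay in the lower part of their lists. The 2263 TAZ4SA peaks had a median area of 60.4 (quartiles 34.5 and 127) and a maximum of 4061, and 6 of them lay in the top 10% of the TAZ4SA list. The 2890 YAP5SA peaks had a median of 56.4 (33.3 and 104) and a maximum of 4734, and again 6 lay in the top 10%. The median peak stood at the 37.9th percentile of the TAZ4SA list, the 31.1st of the YAP5SA list and the 26.3rd of the EV list. The TAZ4SA area exceeded the EV area at 1319 of 2263 sites (58.3%), against 55.5% of sites with 1 fusion and 27.3% of sites with both. The YAP5SA area did at 1645 of 2890 (56.9%), against 62.1% and 69.4%. Areas were not rescaled between lists, so these shares are read only from class to class. EV and TAZ4SA summits lay 41 bp apart at the median, and EV and YAP5SA summits 36 bp, much as at the sites with both fusions (38 and 31 bp).

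The strongest fusion-absent sites were few and gathered in a handful of places. They were ranked by the smaller of the largest EV area and the largest TAZ4SA or YAP5SA area, and 4 of the first 10 lay close together near the end of the short arm of chromosome 1 (all positions are GRCh37). At the leading site, chr1:2609382-2612241, the area was 1242 in EV, 4061 in TAZ4SA, 426 in YAP5SA and 211 in CAMTA1, with no TFE3 peak, and the nearest fusion peak was 2055 bp away. Next to it, chr1:2604906-2608138 had areas of 751 in EV, 3677 in TAZ4SA, 347 in YAP5SA and 115 in CAMTA1. At chr1:2608383-2609256 the areas were 545 in EV, 918 in TAZ4SA, 284 in YAP5SA and 27.1 in CAMTA1. The order of the lists was the same at all 3 neighbouring sites, with TAZ4SA above EV, EV above YAP5SA, and CAMTA1 lowest. Areas were not rescaled between lists, so this is an order of deposited values only. The fourth, chr1:2626987-2627619, had areas of 895 in EV, 1072 in TAZ4SA and 305 in YAP5SA and no CAMTA1 peak. Each of these sites had 14 other fusion-absent sites within 50 kb.

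Several of the other strong sites lay within 2 Mb of long stretches in which no list had a peak, those on chromosome 2 at 1944120 and 1932790 bp. The second-ranked site, chr7:61240477-61242065, had areas of 1123 in EV, 2916 in TAZ4SA, 716 in YAP5SA and 108 in CAMTA1, and its nearest fusion peak was 152014 bp away. The third, chr1:142966430-142967766, had 951 in EV, 1280 in TAZ4SA, 515 in YAP5SA and 267 in CAMTA1. At chr2:90381125-90382103 the areas were 674 in EV, 2118 in TAZ4SA, 1310 in YAP5SA and 163 in CAMTA1. Close by, chr2:90392771-90393429 had 613 in EV, 1392 in TAZ4SA, 531 in YAP5SA and 23.1 in CAMTA1. Of the 10 strongest sites 4 lay within 2 Mb of a stretch of 3 Mb or more without a peak in any list, and 26 of the 50 strongest did (52%). The share was 12.7% of all fusion-absent sites (525 of 4145) and 3.13% of the EV sites with a TAZ4SA or YAP5SA peak. Such stretches include centromeres, and the part of their neighbourhood in these values was not tested.

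Away from such stretches, chr8:86799762-86801188 had areas of 678 in EV, 887 in TAZ4SA, 23.6 in YAP5SA and 25.6 in CAMTA1, and the nearest fusion peak began 627 bp away. At chr5:165614559-165617129 the areas were 569 in EV, 655 in TAZ4SA, 310 in YAP5SA and 86.7 in CAMTA1, and 50 other fusion-absent sites lay within 50 kb. None of the 10 strongest sites had a TFE3 peak, and 9 had a CAMTA1 peak, in each case with a smaller deposited area than that of EV.

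YAP5SA was present at more fusion-absent sites than TAZ4SA, and its list is the longer, with 230886 peaks against 152702. A YAP5SA peak was found at 2890 sites (69.7%, 68.3 to 71.1%), against 95.1% of all EV sites with either coactivator, and a TAZ4SA peak at 2263 (54.6%, 53.1 to 56.1%), against 73.5%. YAP5SA stood without TAZ4SA at 1882 sites and TAZ4SA without YAP5SA at 1255, and 1008 sites (24.3%) had both. The rule asks for at least 1 of these lists, so these shares are fixed in part by the choice of sites.

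Sites with both coactivators were stronger and wider than those with 1. Their median EV area was 67.5, against 42.4 where TAZ4SA stood alone and 39.5 where YAP5SA did, and the merged site was 337 bp wide against 181 and 164 bp. The strongest sites with TAZ4SA and without YAP5SA were chr19:24614211-24614553 (EV area 509, TAZ4SA 385), chr19:27805856-27806106 (327 and 344) and chr11:48896336-48896639 (313 and 321). The strongest with YAP5SA and without TAZ4SA was chr5:165609656-165610431, with areas of 492 in EV and 341 in YAP5SA. It was followed by chr7:1388931-1389427 (219 and 205) and chr5:165884021-165884312 (230 and 187). At all 6 the EV area was above the median of the EV list.

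Fusion-absent sites had a peak in the lists of the full-length fusion partners less often than EV sites in general. A CAMTA1 peak was found at 1075 of the 4145 sites (25.9%, 24.6 to 27.3%), where 78.1% of all EV sites and 91.6% of the EV sites with a TAZ4SA or YAP5SA peak had one. A TFE3 peak was found at 146 (3.52%, 3.00 to 4.13%), where 69.0% of all EV sites and 84.2% of those with a coactivator peak had one. Matching by summit windows raised the TFE3 share to 27.2% (83.7% of the EV sites with a coactivator peak) and equal list lengths raised it to 11.6 or 11.1%. Limiting EV, TAZ4SA and YAP5SA to a −log10 p of 5 or more left 151 sites and put CAMTA1 at 59.6% of them (99.6%). Neither was found at 3000 sites (72.4%, 71.0 to 73.7%). Thus, with peaks as deposited, most sites that were absent from both fusions were absent from both full-length partners too. This did not hold for the strongest, since CAMTA1 had a peak at 15 of the 17 sites with an EV area above 500 (88.2%). That share was still below the 99.96% of the sites in this band with a fusion peak. TFE3 had a peak at 0 of the 17, against 99.5%. The CAMTA1 list (223651 peaks) is longer than the EV list (171102) and the TFE3 list (156421, from 2 libraries) is shorter.

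Within bands of EV area, too, both shares were lower at fusion-absent sites than at the other sites. Site width was not matched. The merged site was 207 bp wide at the median without a fusion, 305 bp with 1 fusion and 932 bp with both. A wider site has more bases in which a CAMTA1 or TFE3 peak can fall. Among sites with an EV area of 20 to 30, CAMTA1 had a peak at 21.0% of the fusion-absent sites and at 78.1% of the sites with 1 or both fusions. For areas of 50 to 100 the shares were 25.4% and 88.1%, and for 200 to 500 they were 51.3% (43.4 to 59.1%) and 98.8%. TFE3 had a peak at 3.88% and 57.0% of sites in the first of these bands, at 3.69% and 73.5% in the second, and at 4.61% (2.25 to 9.20%) and 95.7% in the third. The share with CAMTA1 rose with the EV area and that with TFE3, for peaks as deposited, stayed under 5% in each band up to 500. Over all EV areas, without bands, CAMTA1 was at 58.0% and TFE3 at 25.9% of the sites with 1 fusion. These lay between the fusion-absent sites (25.9% and 3.52%) and the sites with both fusions (97.0% and 91.9%).

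**Figure D2:**
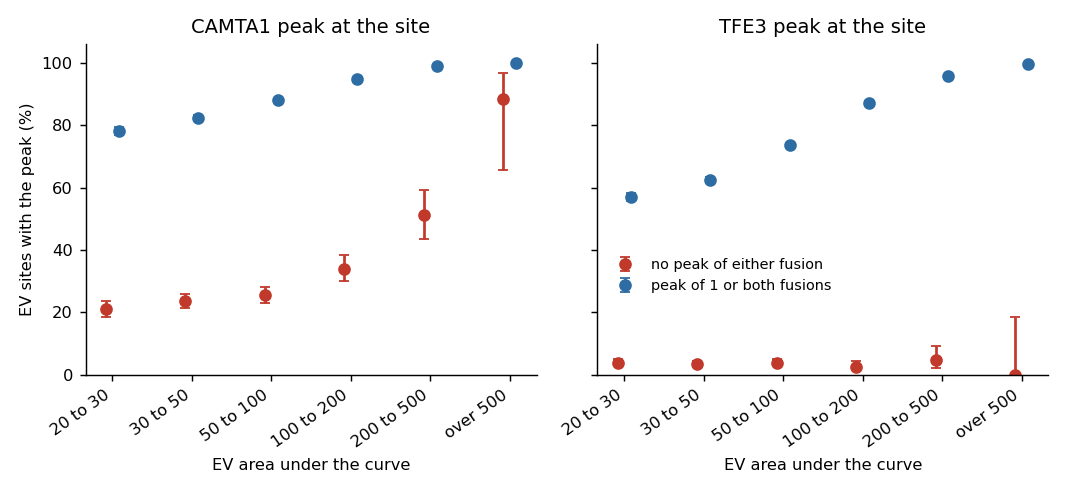
Share of EV sites (y axis, %) with a CAMTA1 peak (left) and with a TFE3 peak (right) in bands of EV area under the curve (x axis), for fusion-absent sites and for sites with a peak of 1 or both fusions, all with a TAZ4SA or YAP5SA peak. Bars are Wilson 95% intervals. CAMTA1 is present at 21.0% of fusion-absent sites of area 20 to 30 and at 51.3% of those of 200 to 500, below the other sites in both bands, and TFE3 stays under 5% up to an area of 500.

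CAMTA1 was more frequent where both coactivators were present. Those sites also had larger EV areas and were wider, and the CAMTA1 shares were not matched for either. CAMTA1 had a peak at 41.0% (38.0 to 44.0%) of the sites with both, at 20.2% (18.0 to 22.5%) of those with TAZ4SA alone and at 21.7% (19.9 to 23.7%) of those with YAP5SA alone. The corresponding TFE3 shares were 3.97%, 2.95% and 3.67%, with overlapping intervals. The CAMTA1 peaks were weak, with a median area of 53.2 and a maximum of 827, and 121 of 1075 exceeded the median of their list. The TFE3 peaks had a median area of 37.5 and a maximum of 150, and 2 of 146 exceeded the median of theirs.

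Only 76 sites had both partners, 999 had CAMTA1 without TFE3 and 70 had TFE3 without CAMTA1. The strongest with both was chr5:46391546-46391809, with areas of 280 in EV, 556 in TAZ4SA, 153 in YAP5SA, 108 in CAMTA1 and 24.9 in TFE3. At chr18:44552014-44552690 the areas were 199 in EV, 180 in TAZ4SA, 159 in YAP5SA, 94.6 in CAMTA1 and 28.3 in TFE3. At chr5:130950717-130951512 YAP5SA was highest, with an area of 1644, against 171 in EV, 380 in TAZ4SA, 827 in CAMTA1 and 98.6 in TFE3. This site carried the largest CAMTA1 area of all fusion-absent sites, and its nearest fusion peak was 1219 bp away.

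The strongest of the sites with TFE3 and without CAMTA1 was chrX:61726484-61726679, with areas of 381 in EV, 712 in TAZ4SA, 51.5 in YAP5SA and 56.9 in TFE3. The next were chr5:165789777-165790386 (EV 209, TAZ4SA 412, YAP5SA 174, TFE3 30.9) and chr5:165884021-165884312 (EV 230, YAP5SA 187, TFE3 22.2). In all 3 the TFE3 area was under the TFE3 list's median of 143. Among sites with neither partner, chr1:2626987-2627619 (above) led, followed by chr2:90391173-90391583 (EV 390, TAZ4SA 774, YAP5SA 339) and chr19:24614211-24614553.

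The distance to the nearest fusion peak was under 1 kb for 54.0% of the sites but depended on the peaks counted. The gap between a fusion-absent site and the nearest peak of either fusion had a median of 812 bp and quartiles of 246 and 3219 bp. The median was 1335 bp with peaks of −log10 p 4 or more, 3329 bp with 5 or more, and 1515 or 1514 bp at equal list lengths. With all peaks the gap was 100 bp or less at 308 sites (7.43%), 500 bp or less at 1666 (40.2%) and 5000 bp or less at 3388 (81.7%). To the nearest TAZ-CAMTA1 peak the median was 1248 bp, and to the nearest YAP-TFE3 peak 1421 bp. The sites of the EV list alone, which also lack fusion peaks, had a median gap of 748 bp and 41.5% within 500 bp, and the 2 cumulative curves nearly coincided.

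**Figure D3:**
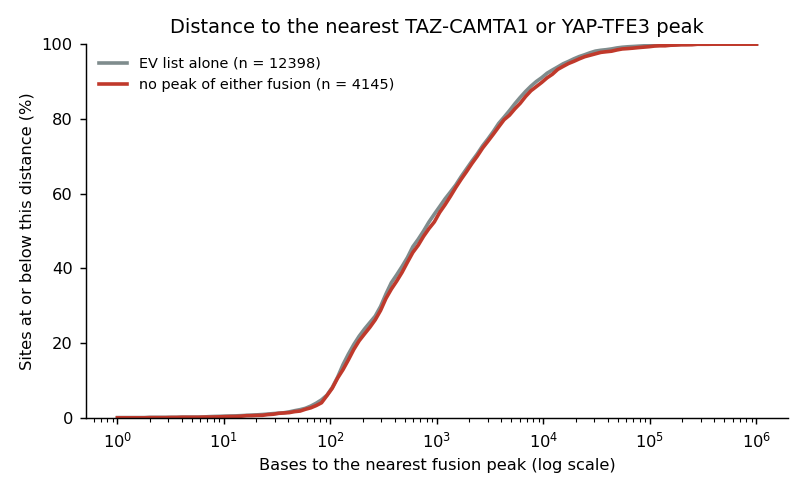
Cumulative share of sites (y axis, %) against the number of bases to the nearest TAZ-CAMTA1 or YAP-TFE3 peak (x axis, log scale), for fusion-absent sites and sites of the EV list alone. The curves nearly coincide, with medians of 812 and 748 bp, and 40.2% of the fusion-absent sites lie within 500 bp of a fusion peak.

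The neighbouring fusion peaks were themselves weak. The nearest was a TAZ-CAMTA1 peak for 2187 sites and a YAP-TFE3 peak for 1958, with a median area of 71.3 and a width of 138 bp. The medians of the whole TAZ-CAMTA1 and YAP-TFE3 lists were 142 and 154 for area, and 203 and 192 bp for width. The nearest peak belonged to a site with its own EV peak in 2609 cases (62.9%), and to a site held by all 7 lists in 1008 (24.3%). The same shares over all fusion peaks were not counted. Sites within 500 bp of a fusion peak had values close to those of the rest, with CAMTA1 at 26.8% against 25.3%, TFE3 at 3.84% against 3.31%, and a median EV area of 43.3 against 46.2. Sites that lacked CAMTA1 lay 1207 bp from the nearest CAMTA1 peak at the median, and those that lacked TFE3 lay 3427 bp from the nearest TFE3 peak.

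At the edge of the rule, 16 fusion-absent sites had a fusion peak within 10 bp. Of these, chr1:149827958-149828202 (EV area 41.7, YAP5SA 62.2), chr13:102041862-102042194 (EV 58.2, TAZ4SA 57.9) and chr7:1528567-1528710 (EV 36.1, TAZ4SA 24.2) touched a fusion peak without sharing a base. Just outside it, 6 sites shared 1 to 10 bases with a fusion peak, the closest being chr13:95294319-95294785 with 2 bases (EV 48.8, YAP5SA 50.1). Next came chr11:119983875-119984318 with 3 bases (EV 67.9, YAP5SA 55.4) and chr13:105934549-105935110 with 7 bases (EV 51.1, YAP5SA 178). At the other extreme, chr4:132671081-132671577 (EV 146, TAZ4SA 123, YAP5SA 312) and chr4:132664501-132664879 (105, 263 and 46.2) lay 1185850 and 1179270 bp from a fusion peak. The third farthest was chr8:83586700-83587399, at 366643 bp, with areas of 22.9 in EV, 91.1 in TAZ4SA, 197 in YAP5SA and 160 in CAMTA1.

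The fusion-absent sites were spread very unevenly over the chromosomes. Chromosome 5 held 1097 of them (26.5%) and 11.5% of all EV sites, and chromosome 13 held 659 (15.9%) and 4.61% of EV sites. Of the EV sites with a TAZ4SA or YAP5SA peak, 11.3% (10.7 to 12.0%) on chromosome 5 and 18.8% (17.5 to 20.1%) on chromosome 13 lacked both fusions. Outside chromosomes 5 and 13 the share was 2.90% (2.79 to 3.02%), or 2389 sites. It was 7.25% on chromosome 21, 4.90% on chromosome 20, 4.40% on chromosome 7 and 4.18% on chromosome 9, and 1.21% on chromosome X. Chromosome Y and the unplaced contigs, with 87 sites together, are few and had a share of 25.6% (21.2 to 30.5%).

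**Figure D4:**
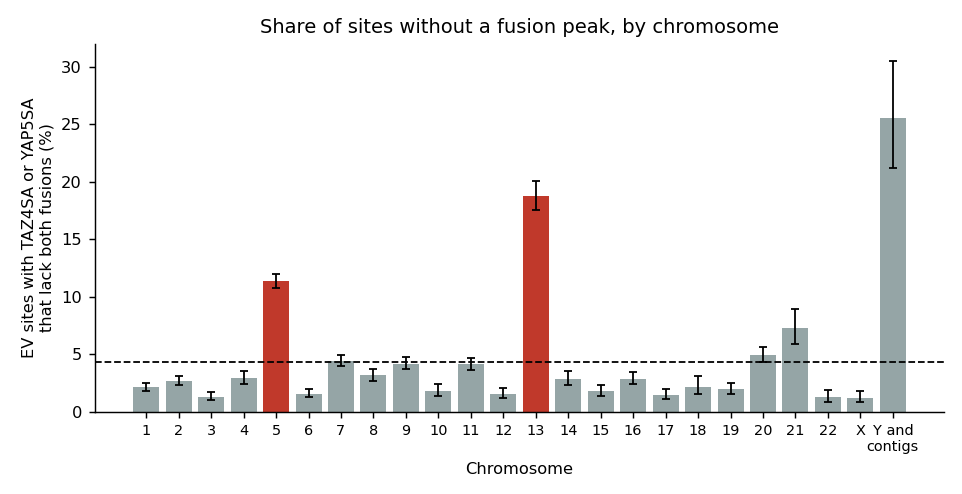
Share of EV sites with a TAZ4SA or YAP5SA peak that lack both fusions (y axis, %) on each chromosome (x axis), with Wilson 95% intervals. The dashed line is the share over the genome, 4.34%. Chromosome 13 (18.8%) and chromosome 5 (11.3%), in red, stand above every other numbered chromosome, and chromosome Y with the unplaced contigs is at 25.6%.

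The unevenness was found in each band of EV area up to 500. Among sites with an EV area of 20 to 30, 36.8% (34.1 to 39.6%) on chromosomes 5 and 13 and 13.2% (12.2 to 14.1%) elsewhere lacked both fusions. For areas of 100 to 200 the shares were 10.1% and 2.23%, and for 200 to 500 they were 2.50% and 0.672%. Above 500 the sites were 4 and 13, at 0.111% (0.0432 to 0.285%) and 0.0410% (0.0240 to 0.0702%), with overlapping intervals. The peak lists themselves were tilted in the same direction. Over the genome the EV list had 0.722 peaks for each TAZ-CAMTA1 peak, against 0.911 on chromosome 5 and 1.12 on chromosome 13. The median EV area of the fusion-absent sites was 47.4 on chromosome 5 and 45.4 on chromosome 13, near the 44.6 of all of them. CAMTA1 was present at 23.5% of them on chromosome 5 and 17.5% on chromosome 13, against 29.4% of those elsewhere. Its share was also lower on these chromosomes at sites with a fusion peak, so this was not particular to the fusion-absent sites. For EV areas of 20 to 30 it was 62.6% there and 80.8% elsewhere, and for 50 to 100 it was 75.8% and 90.2%.

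Within chromosomes the sites were gathered in few bins. In bins of 1 Mb, 78 of the 2719 bins with an EV site held 50.1% of the fusion-absent sites and 12.0% of the EV sites, and 1745 bins held none. Another fusion-absent site lay within 5 kb of 1555 of them (37.5%), whereas 62.4% of the more numerous EV sites with a TAZ4SA or YAP5SA peak had another of their own kind that near. The densest bin, chr5:165000001-166000000, held 181, which was 52.9% of its 342 EV sites with a TAZ4SA or YAP5SA peak. Its lists counted 550 peaks in EV, 666 in TAZ4SA and 643 in YAP5SA, but 403 in CAMTA1, 119 in TFE3, 204 in TAZ-CAMTA1 and 245 in YAP-TFE3. In the second, chr5:156000001-157000000, 69 sites lacked both fusions, and in the third, chr13:98000001-99000000, 68 did. EV had 557 and 568 peaks in these bins, TAZ-CAMTA1 402 and 412, and TFE3 224 and 205. TAZ4SA had 403 and 417 and YAP5SA 482 and 533, also fewer than EV. Both fusion lists and both partner lists thus had fewer peaks than EV in the densest bin, whereas TAZ4SA and YAP5SA had more.

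Runs of neighbouring bins with 10 or more fusion-absent sites each, and 50 or more together, formed 9 stretches, which were chosen after the values were seen. On chromosome 13 they spanned 60000001 to 63000000 (121 sites), 91000001 to 99000000 (286) and 100000001 to 104000000 (187). On chromosome 5 they spanned 1 to 3000000 (93), 63000001 to 65000000 (82), 128000001 to 134000000 (145), 156000001 to 157000000 (69) and 165000001 to 167000000 (228). The last, on chromosome 21, spanned 9000001 to 11000000 (63). Together the stretches held 1274 fusion-absent sites (30.7%) and 6.07% of all EV sites. In them 27.4% (26.1 to 28.7%) of the EV sites with a TAZ4SA or YAP5SA peak lacked both fusions, against 3.16% (3.05 to 3.28%) outside. CAMTA1 was present at 20.9% of the fusion-absent sites inside the stretches and 28.2% outside, and TFE3 at 1.57% and 4.39%. Both partner lists as a whole were also sparser inside, so these lower shares are not particular to the fusion-absent sites. EV had 1.39 peaks for each CAMTA1 peak inside and 0.745 outside, and 2.64 and 1.06 for each TFE3 peak.

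In the same stretches the area of the fusions and of the full-length partners was lower relative to EV. A ratio to EV cannot tell a lower area in these lists from a higher EV area. The values come from sites with peaks in all 7 lists, none of which is a fusion-absent site. The log2 ratio of the EV area to another list's area was taken at each of these 60372 sites, and its median in a stretch was set against the median outside the stretches. In chr5:165000001-167000000, over 61 such sites, the ratio of EV to TAZ-CAMTA1 was shifted by 3.41 on the log2 scale, that to YAP-TFE3 by 3.01, that to TFE3 by 3.06 and that to CAMTA1 by 1.84. The ratio to TAZ4SA was shifted by −0.52 and that to YAP5SA by 0.23. Over the 76 sites in chr13:60000001-63000000 TAZ-CAMTA1 had a shift of 0.93, YAP-TFE3 of 0.96, TFE3 of 1.10 and CAMTA1 of 0.93, with −0.01 for TAZ4SA and 0.62 for YAP5SA. The stretches were chosen by their counts of fusion-absent sites, so the EV, TAZ4SA, YAP5SA and fusion lists had a part in the choice. The shifts of those lists are a description. In all 9 stretches the shift was positive for both fusions and for both full-length partners. It was also positive for YAP5SA, at 0.14 to 0.62. It ranged from 0.26 (chr5:128000001-134000000) upwards for TAZ-CAMTA1 and from 0.33 (chr5:1-3000000) upwards for YAP-TFE3. Across the stretches together it was 0.59 for TAZ-CAMTA1 and 0.56 for YAP-TFE3, and 0.65 and 0.56 for the partners CAMTA1 and TFE3, against 0.13 for TAZ4SA and 0.23 for YAP5SA. Single stretches departed from this order. In chr5:1-3000000 the shift for TAZ4SA (0.42) lay between those for YAP-TFE3 (0.33) and TAZ-CAMTA1 (0.49). In chr5:156000001-157000000 the shift was 0.57 for TAZ4SA and 0.59 for TAZ-CAMTA1.

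A like relation was seen across the genome, at sites that are not fusion-absent but in lists that were used to choose them. In each of 1845 bins of 1 Mb with 10 or more sites in all 7 lists, the median log2 ratio of the EV area to the mean fusion area was computed and the overall median subtracted. In the 960 bins with a shift below 0, 1.72% (1.60 to 1.84%) of the EV sites with a TAZ4SA or YAP5SA peak lacked both fusions. The share was 2.84% at shifts of 0 to 0.25 (562 bins), 6.10% at 0.25 to 0.5 (219 bins), 18.4% (17.4 to 19.4%) at 0.5 to 1 (84 bins) and 33.6% (31.2 to 36.1%) at 1 or more (20 bins). The order was the same among weak sites of EV area up to 100, where the share rose from 5.43% to 63.3% over the same groups of bins. The 104 bins with a shift of 0.5 or more held 1521 fusion-absent sites (36.7%), and the 1741 bins below it held 2169 (52.3%). The remaining 455 lay in bins with fewer than 10 sites in all lists. Among the 20 bins at 1 or more, chr7:61000001-62000000 and chrX:61000001-62000000 held named sites near a stretch of 3 Mb or more without peaks. The distances were 185097 and 44206 bp. The named sites in chr5:165000001-166000000 were far from any such stretch. How many of the 20 bins lay beside one was not counted, so their share may not describe the genome at large.

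**Figure D5:**
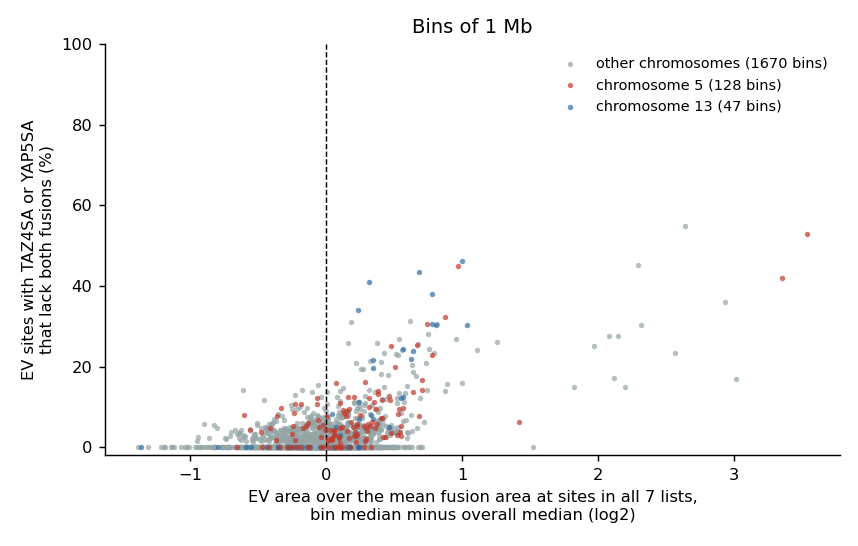
Each point is a 1 Mb bin with 10 or more sites in all 7 lists. The x axis gives the median log2 ratio of EV area to mean fusion area at those sites minus the overall median, and the y axis the share (%) of EV sites with a TAZ4SA or YAP5SA peak that lack both fusions. Bins at a shift below 0 have a pooled share of 1.72% and the 20 bins at 1 or more a pooled share of 33.6%, and the bin farthest right, on chromosome 5, has 52.9%.

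The EV area relative to the CAMTA1 and TFE3 lists, which did not choose the sites, shifted the same way as that relative to the fusions. All these ratios share the EV area, so a high EV area in a bin raises each of them. In the 20 bins with a fusion shift of 1 or more, the EV area relative to the mean of CAMTA1 and TFE3 was shifted by 1.73 at the median, and relative to the mean of TAZ4SA and YAP5SA by −0.18. In the 84 bins of 0.5 to 1 these values were 0.45 and 0.07, and in the 960 bins below 0 they were −0.20 and −0.06. The densest bin, chr5:165000001-166000000, had the largest fusion shift of all (3.53), with 2.83 relative to CAMTA1 and TFE3 and −0.02 relative to TAZ4SA and YAP5SA. Bins with a large shift did not all hold many of the sites, since chr8:86000001-87000000, with a shift of 3.01, held 12 (16.9% of 71). The area of a peak grows with how open the chromatin is and with how many copies of that DNA the cells hold, and in these lists the 2 cannot be told apart.

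Absence from the fusion lists was not the most frequent absence among EV sites. Of the 95508 EV sites with a TAZ4SA or YAP5SA peak, 4.34% lacked both fusions and 6.94% (6628) lacked both CAMTA1 and TFE3. Of the 108787 EV sites with a fusion peak, 16.0% (17424) lacked both TAZ4SA and YAP5SA and 8.85% (9625) lacked both full-length partners. Of the 101574 EV sites with a CAMTA1 or TFE3 peak, 12.5% (12694) lacked TAZ4SA and YAP5SA, whereas 2.37% (2412) lacked both fusions. The median EV area of the absent sites lay between 42.4 and 52.6 in all 6 cases, near the 44.6 of the fusion-absent sites. The fusion lists are the longest of the 7, with 236893 and 235795 peaks, and the TAZ4SA list is the shortest, with 152702, and list lengths were not equalised in these counts.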

How the data were processed

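ATAC-seq was performed on SW872 cells. According to the study's methods, reads were trimmed with NGmerge and aligned with BWA-MEM to GRCh37, and peaks were called with Genrich with a signal artefact blacklist and duplicate removal. The submitters' processing notes instead name Bowtie 0.12.2 and mm8, which do not match human peaks; 16147 peaks end beyond the GRCh38 chromosomes, so gene annotation and sequence of the available GRCh38 reference were not used. One list per vector was deposited; how libraries were combined and their depth are not given in the sources used here.

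The peak signal is the area under the curve that the authors deposited. The −log10 p of the summit and the summit offset were deposited by the authors too. The deposited score, the mean area per base, and the −log10 q were not used.

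Peaks sharing 1 bp or more were merged (Python 3.11.15, pandas 2.3.3), with the number of sites checked against bedtools 2.31.1, and the scripts were tested on simulated data. A site takes its largest area per list. Intervals are Wilson 95% intervals (scipy 1.17.1). Gaps count the bases between a site and a peak. Positions count from 1, and bins are 1 Mb. Areas were not rescaled between lists, so ratios of areas are given only as shifts against the rest of the genome. The named sites are the 10 with the largest limiting area (the smaller of the EV and the larger coactivator area), the first 3 per pattern of CAMTA1 and TFE3 and of TAZ4SA and YAP5SA, the 3 nearest to and farthest from a fusion peak, the 3 just outside the rule, and the 3 densest bins. The sites, lists and alternatives were chosen with earlier results of these data known. The other settings tried were stricter peaks, equal list lengths, summit windows, a 500 bp gap, autosomes and a 50% overlap.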

Additional observations from a re-analysis of the deposited data

How the results depend on the processing

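No paired analysis was possible because each vector has 1 list and no values per library, and leaving out single libraries was not run for the same reason. Promoter windows were not run. Under the settings listed in the methods, 18 stayed and 46 moved beyond 1.5 times for the count or outside the 95% interval for a share or median; of those chosen after seeing the data, 14 stayed and 18 moved. With autosomes only, and with touching peaks merged, all values stayed. With peaks of −log10 p 4 or more in all lists, the share lacking both fusions was 4.12%, the median EV area 74.3, the EV width 145 bp, the distance to a fusion peak 1335 bp and the YAP5SA share 65.5%. At 5 or more, 831 sites were left (1.58%), with CAMTA1 at 28.3%, TFE3 at 1.93%, an area of 289, a width of 307 bp and a distance of 3329 bp. With that limit on EV, TAZ4SA and YAP5SA alone, 151 sites were left (0.287%), with CAMTA1 at 59.6%, TFE3 at 4.64%, YAP5SA at 49.7%, an area of 243, a width of 264 bp and a distance of 1158 bp. With equal list lengths by −log10 p the share was 5.91%, CAMTA1 22.0%, TFE3 11.6%, YAP5SA 54.1%, the area 62.3, the width 130 bp and the distance 1515 bp; ranked by area, these were 5.64%, 21.9%, 11.1%, 54.1%, 60.9, 134 bp and 1514 bp. Summit windows gave 6859 sites (6.89%), with CAMTA1 at 32.2%, TFE3 at 27.2%, an area of 74.4 and a distance of 521 bp. Requiring no fusion peak within 500 bp left 2479 sites (2.60%), with an area of 46.2, a distance of 2398 bp and YAP5SA at 67.9%. An overlap of 50% of both peaks left 2561 EV peaks.

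After seeing the data, chromosomes 5 and 13 were left out, which gave 2389 sites (2.90%), CAMTA1 at 29.4%, TFE3 at 4.48%, YAP5SA at 72.1% and a distance of 706 bp. Without the 9 dense stretches the share was 3.16%, CAMTA1 28.2%, TFE3 4.39%, YAP5SA 71.3%, the area 42.9 and the distance 713 bp. Without the bins shifted by 0.5 or more, 2624 sites (2.97%) remained, with TFE3 at 4.65%, YAP5SA at 71.3%, an area of 41.3 and a distance of 682 bp. Under each alternative that gave these shares (all but the 50% overlap), CAMTA1 and TFE3 were less frequent at the fusion-absent sites than at all EV sites with a coactivator peak under that setting, where CAMTA1 was at 89.2% or more and TFE3 at 83.7% or more. With no replicate lists, the variation between libraries is not covered by any value here.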
